A study of Mus musculus with 24 samples.

Results

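The genes described here are 9 markers of muscle wasting and of the FoxO response: Fbxo32, Trim63, Fbxo30, Foxo1, Foxo3, Klf15, Ddit4, Gadd45a and Cdkn1a. They were taken by symbol from the deposited table of 24016 gene symbols, with the transcript of the highest mean value for each symbol. All 9 passed the filter on low values that left 12382 genes for testing: 8 had an RPKM of at least 1 in all 24 libraries and Foxo3 in 20, spread over all 4 groups. The lowest value of any of them rested on 15 reads. RNA came from hindlimb muscle of C57BL/6 mice, collected on day 7 after the femoral artery of 1 limb had been ligated. The 4 groups held 6 libraries each: ischemic gastrocnemius of T2DM (type 2 diabetic) mice, ischemic gastrocnemius of Control mice, adductor of T2DM mice and adductor of Control mice. The labels call the adductor normoxic. All mice had the ligation, so no group stands for unoperated mice. Which limb the adductor came from is not established here. The means of producing diabetes, the diet, the age and the sex of the mice are not given in the sources used here. A difference between gastrocnemius and adductor combines ischemia with the identity of the muscle, and these cannot be told apart. The labels do not say that libraries of 1 group came from separate animals, so p-values reflect only how these libraries scatter, which may be technical.

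Wasting of muscle is driven by protein breakdown in the fibres. FoxO transcription factors are held out of the nucleus by insulin and Akt signalling; when that signal is low they turn on ubiquitin ligases, above all atrogin-1 (Fbxo32) and MuRF1 (Trim63), which mark muscle proteins for the proteasome, and genes of autophagy. Glucocorticoids act on the same ligases, partly through the transcription factor Klf15, and on Ddit4, an inhibitor of the growth kinase mTORC1. Gadd45a and Cdkn1a belong to stress and p53 responses and are also active in denervated muscle and in myoblasts that leave the cell cycle.

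Libraries held between 7.13 and 15.6 M reads. They form sets by replicate number that no label names and that were told apart by the level of Gapdh after the data were seen. The second set holds T2DM 5 and 6 and Control 4 to 6 of both muscles, with 7.13 to 11.8 M reads and Gapdh between 0.365 and 13.7 RPKM (reads per kilobase of transcript and M reads). The first set holds T2DM 1 to 4 and Control 1 to 3, with 12.0 to 15.6 M reads and Gapdh between 677 and 1757 RPKM. What made the sets is not given in the sources used here. As a check of the tissue label, 10 skeletal fibre genes were above 0 in every library, with summed levels between 17082 and 130235 RPKM. Among gastrocnemius libraries, T2DM 2 and Control 3 stood apart with the lowest summed level of 5 regenerating fibre genes, 468 RPKM in T2DM 2 against 670 to 1146 in the other T2DM libraries, and 558 RPKM in Control 3 against 765 to 1113 in the other Control libraries. Results between the muscles are therefore given with and without these libraries.

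The 9 genes lie on 6 chromosomes of mouse build mm9. The E3 ligase genes are Fbxo32 (NM_026346, chr15:58007434-58046447, minus strand), Trim63 (NM_001039048, chr4:133871035-133885544, plus strand) and Fbxo30 (NM_027968, chr10:11001128-11017767, plus strand). The transcription factor genes are Foxo1 (NM_019739, chr3:52072259-52154031, plus strand), Foxo3 (NM_019740, chr10:41905592-41996548, minus strand) and Klf15 (NM_023184, chr6:90412620-90425203, plus strand). The stress and growth control genes are Ddit4 (NM_029083, chr10:59412423-59414518, minus strand), Gadd45a (NM_007836, chr6:66985090-66987401, minus strand) and Cdkn1a (NM_007669, chr17:29230717-29237667, plus strand). Values cover the exons of these transcripts. Fbxo30 and Cdkn1a each have 2 transcripts in the table, and the other 7 genes have 1.

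On the RPKM scale, which is per length and so allows genes to be ranked, the order of the genes differed by muscle. In both gastrocnemius groups Cdkn1a stood first, at a mean of 212 ± 87.8 RPKM in T2DM and 217 ± 86.2 RPKM in Control (SD, n = 6 each, as for all means here). Trim63 came next at 53.1 ± 37.3 and 53.6 ± 27.8 RPKM, and it did not stand apart from Gadd45a, the gene after it, which it exceeded in 4 of 6 T2DM libraries and in 3 of 6 Control libraries. In both adductor groups Trim63 stood first, at 144 ± 96.3 RPKM in T2DM and 137 ± 92.6 RPKM in Control. Fbxo32 came after it at 81.7 ± 48.3 and 49.1 ± 11.0 RPKM, below Trim63 in all 12 adductor libraries. Cdkn1a ranked below Gadd45a there, at 22.9 ± 19.0 and 15.0 ± 7.11 RPKM, and was not separated from Klf15, which it exceeded in 3 of 6 T2DM and 4 of 6 Control libraries. Fbxo30 and Foxo3 closed the order in both adductor groups, each above the other in 3 of 6 libraries.

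**Figure D1:**
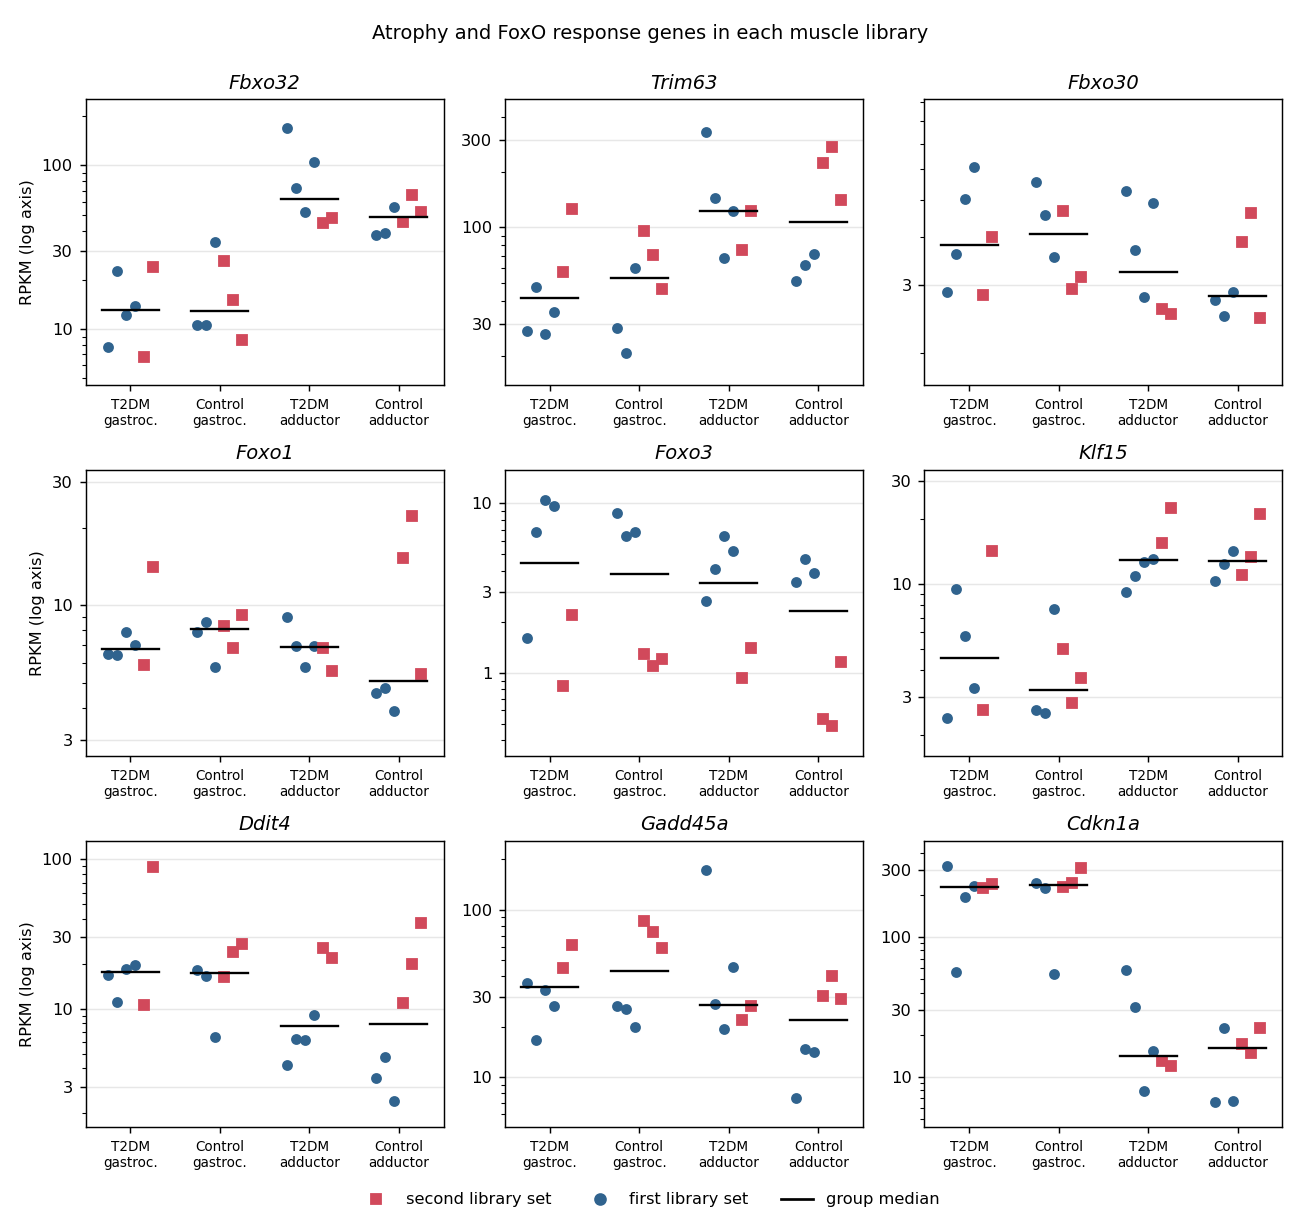
Level of each gene in RPKM (log axis) in the 24 libraries, by group; squares are libraries of the second set, circles those of the first, and lines are group medians. Fbxo32 and Klf15 lie lower and Cdkn1a higher in the gastrocnemius groups. Foxo3 is lower in the second set without overlap in 3 of the 4 groups. In T2DM gastrocnemius its first-set library 1 (1.62 RPKM) lies below second-set library 6 (2.18 RPKM). The share of all genes parted in this way between the sets was not computed, and 56.6% of all genes were called between the sets.

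Between the muscles, 4 of the 9 genes passed the test in T2DM mice and 4 in Control mice: Cdkn1a rose, and Fbxo32, Trim63 and Klf15 fell, in ischemic gastrocnemius relative to adductor in both. Of all 12382 genes tested, 56.9% were called between the muscles in T2DM mice, 48.1% higher and 8.83% lower, and 63.1% in Control mice, 54.4% higher and 8.7% lower. The count of 4 in 9 is thus below the background share, and 3 of the 4 calls are in the direction that few genes take. A median-of-ratios scaling, which does not share 1 total among all genes, moved the balance: 51.12% of the calls in T2DM mice and 51.77% in Control mice were then higher, against 84.5% and 86.2% on the RPKM scale, on which the median of all genes was shifted by 0.55 in T2DM mice and 0.66 in Control mice (log2). The 4 genes were called in the same direction under both scalings.

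Fbxo32 encodes atrogin-1, the substrate-binding F-box protein of a muscle ubiquitin ligase. Its level in ischemic gastrocnemius had a low, median and high of 6.78, 13.0 and 23.9 RPKM in T2DM mice and 8.55, 12.8 and 34.2 RPKM in Control mice. In adductor the corresponding levels were 44.3, 62.0 and 169 RPKM in T2DM mice and 37.5, 48.4 and 66.1 RPKM in Control mice. No gastrocnemius library reached the lowest adductor library of its mouse group, a separation in the lower direction that 2.33% of all genes showed in T2DM mice and 3% in Control mice. These shares are on the RPKM scale, where the median of all genes was shifted by 0.55 and 0.66. Under the median-of-ratios scaling they were not computed. The muscle difference of Fbxo32 was -2.42 ± 0.37 on the log2 scale in T2DM mice (limma, log2(RPKM + 0.5), ± SE, adjusted p = 7.43e-06) and -1.62 ± 0.37 in Control mice (adjusted p = 0.000567). Without the libraries T2DM 2 and Control 3 of gastrocnemius it was -2.58 and -1.84. Within the library sets it was -1.81 (second) and -2.73 (first) in T2DM mice, and -1.80 (second) and -1.43 (first) in Control mice.

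Trim63 encodes MuRF1, a RING-type ubiquitin ligase of the sarcomere that targets thick filament proteins. Its low, median and high in gastrocnemius were 26.2, 41.1 and 125 RPKM in T2DM mice and 20.7, 53.1 and 95.5 RPKM in Control mice. In adductor they were 68.6, 123 and 331 RPKM in T2DM mice and 51.3, 107 and 272 RPKM in Control mice. The muscles overlapped in both mouse groups. The difference was -1.45 ± 0.47 (log2) in T2DM mice (limma adjusted p = 0.0117) and -1.24 ± 0.47 in Control mice (adjusted p = 0.0265), and without T2DM 2 and Control 3 of gastrocnemius it was -1.47 and -1.31. The call in Control mice was lost without 1 library in 4 cases: -1.04 without adductor 4 (limma adjusted p = 0.0703), -0.98 without adductor 5 (0.0785), -1.09 without gastrocnemius 1 (0.0637) and -1.005 without gastrocnemius 2 (0.0781). Within the sets the difference was -0.18 (second) and -2.09 (first) in T2DM mice, and -1.59 (second) and -0.89 (first) in Control mice; whether the sets differ in this was not tested.

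The promoter of Trim63 is shown because Trim63 and Fbxo32 moved together across libraries and because the rodent gene is known for joint control by FoxO1 and the glucocorticoid receptor. The window is from RefSeq on build GRCm38.p6, chr4:134314870-134315169, plus strand, and runs from 250 bases before to 50 bases after the start of the gene. Capitals mark the core of a glucocorticoid receptor element, the motif parts GAACA and TGTTC with 3 bases of any kind between them (at -208 from the start), and the FoxO motif GTAAACA, present on the minus strand (at -194), so that it reads as its reverse complement here.
Trim63: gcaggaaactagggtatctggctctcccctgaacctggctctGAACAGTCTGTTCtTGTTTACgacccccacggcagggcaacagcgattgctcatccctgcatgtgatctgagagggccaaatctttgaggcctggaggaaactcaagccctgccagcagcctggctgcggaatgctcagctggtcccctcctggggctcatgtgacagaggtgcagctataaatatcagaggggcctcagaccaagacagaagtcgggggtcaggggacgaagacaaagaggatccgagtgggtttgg
The motifs were searched on both strands and do not overlap each other in this window. Of 32851 promoters of that length, 3.65% hold the FoxO motif and 0.0578% the receptor core. The core was chosen after the full palindrome, with 1 more base at each end (parts AGAACA and TGTTCT), which 0.00913% of promoters hold, had been found in none of the 9 windows available for 8 of these genes (all but Fbxo32). Neither the FoxO motif nor the core was found in the windows of Fbxo30, Foxo1, Foxo3, Klf15, Ddit4, Gadd45a and Cdkn1a. A match of letters is a description and not a bound site.

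The ratio of Trim63 to Fbxo32 (RPKM over RPKM) ranged from 1.17 to 8.48, so Trim63 was the higher of the ligases in all 24 libraries. Within the second set the ratio was 5.24 and 8.48 in T2DM gastrocnemius and 3.68 to 5.39 in Control gastrocnemius, against 1.71 and 2.55 in T2DM adductor and 2.73 to 4.98 in Control adductor. In the first set it was 2.09 to 3.54 in T2DM gastrocnemius and 1.76 to 2.70 in Control gastrocnemius, against 1.17 to 2.00 in T2DM adductor and 1.297 to 1.62 in Control adductor. Within each set, the ratio was thus higher in gastrocnemius than in adductor for T2DM mice without overlap, and for Control mice without overlap in the first set. How often ratios of other genes part in this way was not computed. Of single genes, 74.7% did not overlap between the T2DM muscles in the second set and 53.3% in the first. Between the Control muscles of the first set 72.1% did not overlap.

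Fbxo30 encodes MUSA1, a ligase subunit induced in denervated mouse muscle when BMP signalling is low. It was expressed at a far lower level than the other ligases, at 2.82 to 6.09 RPKM in T2DM gastrocnemius, 2.94 to 5.55 in Control gastrocnemius, 2.52 to 5.28 in T2DM adductor and 2.47 to 4.62 in Control adductor. The groups overlapped over all 6 libraries each. The muscle difference was 0.15 ± 0.21 in T2DM mice (log2, 95% interval -0.29 to 0.59) and 0.32 ± 0.21 in Control mice (-0.12 to 0.75), neither called. Under the median-of-ratios scaling it was -0.45 and -0.39, so its direction depends on the scale. Within the sets it was 0.34 (second) and 0.06 (first) in T2DM mice on the RPKM scale, and -0.01 (second) and 0.64 (first) in Control mice. Gastrocnemius was higher without overlap in the second set of T2DM mice and the first set of Control mice, as were 50.7% and 66.1% of all genes.

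Among the transcription factors, Klf15, a zinc finger protein induced by glucocorticoids that turns on amino acid breakdown, was the 1 that passed the test. Its low, median and high in gastrocnemius were 2.40, 4.54 and 14.2 RPKM in T2DM mice and 2.54, 3.26 and 7.66 RPKM in Control mice. In adductor they were 9.18, 12.9 and 22.6 RPKM in T2DM mice and 10.3, 12.9 and 21.2 RPKM in Control mice. The Control muscles did not overlap, a separation in the lower direction that 3% of all genes showed on the RPKM scale. The T2DM gastrocnemius libraries 6 and 2, at 14.2 and 9.53 RPKM, reached into the adductor range. Klf15 fell by 1.31 ± 0.34 (log2) in T2DM mice (limma adjusted p = 0.00225) and by 1.71 ± 0.34 in Control mice (adjusted p = 0.000149). Without T2DM 2 and Control 3 of gastrocnemius the differences were -1.47 and -1.89, and within the sets they lay between -1.84 and -1.21.

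Foxo1, the FoxO factor induced in fasting muscle, and Foxo3, the factor that drives ligase and autophagy genes in mouse muscle, did not pass the test between the muscles. Foxo1 averaged 7.97 ± 3.10 RPKM in T2DM gastrocnemius and 7.76 ± 1.26 in Control gastrocnemius, against 6.85 ± 1.24 in T2DM adductor and 9.35 ± 7.62 in Control adductor. Its difference was 0.16 ± 0.31 in T2DM mice (95% interval -0.49 to 0.81) and 0.04 ± 0.31 in Control mice (-0.60 to 0.69), and -0.47 and -0.70 under the median-of-ratios scaling. On the RPKM scale it was 0.53 (second) and -0.03 (first) within the sets of T2DM mice. In Control mice it was -0.59 (second) and 0.67 (first), so the value near 0 averages opposite signs. The Control muscles did not overlap in the first set, where 66.1% of all genes were higher without overlap. Foxo3 averaged 5.24 ± 4.25 RPKM in T2DM gastrocnemius and 4.25 ± 3.43 in Control gastrocnemius, against 3.46 ± 2.17 in T2DM adductor and 2.36 ± 1.85 in Control adductor. Its difference was 0.33 ± 0.61 (-0.92 to 1.58) in T2DM mice and 0.65 ± 0.61 (-0.60 to 1.90) in Control mice, and -0.27 in T2DM mice under the median-of-ratios scaling. Within the sets it was 0.20 (second) and 0.39 (first) in T2DM mice on the RPKM scale, and 0.51 (second) and 0.79 (first) in Control mice. Most of the spread of Foxo3 was between the library sets, described further on.

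Cdkn1a encodes p21, an inhibitor of cyclin-dependent kinases that is a p53 target and marks myoblasts leaving the cell cycle. Its low, median and high in gastrocnemius were 55.9, 228 and 324 RPKM in T2DM mice and 54.0, 235 and 313 RPKM in Control mice. In adductor they were 7.87, 14.1 and 58.0 RPKM in T2DM mice and 6.54, 16.0 and 22.4 RPKM in Control mice. The lowest gastrocnemius value of each mouse group belonged to the libraries with the fewest regenerating fibre markers, T2DM 2 and Control 3. The muscles did not overlap in Control mice, a separation in the higher direction shown by 33.3% of all genes, and in T2DM mice only gastrocnemius 2 and adductor 1 crossed. Cdkn1a rose by 3.34 ± 0.49 (log2) in T2DM mice (limma adjusted p = 4.96e-06) and by 3.80 ± 0.49 in Control mice (adjusted p = 7.70e-07), and by 3.69 and 4.16 without T2DM 2 and Control 3. Within the sets it was higher by 2.93 to 4.16.

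Gadd45a, a stress protein that is a FoxO and ATF4 target in denervated mouse muscle, and Ddit4 (REDD1), the mTORC1 inhibitor induced by hypoxia and by glucocorticoids, were not called in the main comparison of the muscles. Gadd45a had a low, median and high of 16.6, 34.7 and 61.9 RPKM in T2DM gastrocnemius and 19.9, 42.9 and 85.1 RPKM in Control gastrocnemius. In adductor it had 19.3, 27.0 and 172 RPKM in T2DM mice and 7.52, 22.0 and 40.2 RPKM in Control mice. Its difference in Control mice was 1.06 ± 0.49 (limma adjusted p = 0.065), higher in 6 of 6 same-numbered pairs of libraries. Foxo3 and Cdkn1a were also higher in 6 of 6 such pairs, and the share of all genes was not computed. With pairs of the same number as a block the limma adjusted p of Gadd45a was 0.0150, and with a term for the library set 0.0272. Without T2DM 2 and Control 3 of gastrocnemius it was 0.0316. It was not called under the other settings, median-of-ratios scaling among them, apart from 3 of 24 fits that left out 1 library. The median over all genes was 0.66 in Control mice on the RPKM scale. In T2DM mice the difference was -0.12 ± 0.49, with 1.11 within the second library set and -0.73 within the first; adductor 1, at 172 RPKM, is in the first set.

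Ddit4 had a low, median and high of 10.5, 17.7 and 88.7 RPKM in T2DM gastrocnemius and 6.47, 17.4 and 27.2 RPKM in Control gastrocnemius. In adductor it had 4.21, 7.62 and 25.3 RPKM in T2DM mice and 2.41, 7.85 and 37.5 RPKM in Control mice. The difference was 1.01 ± 0.59 in T2DM mice (limma adjusted p = 0.151) and 0.93 ± 0.59 in Control mice (0.176). With the number block the limma adjusted p was 0.0466 in T2DM mice, and with the set term 0.0290 in Control mice. Ddit4 was not called under the other settings, median-of-ratios scaling among them. The exception was 1 of 24 fits that left out 1 library, in Control mice. The medians over all genes were 0.55 in T2DM and 0.66 in Control mice on the RPKM scale. Within the second set the muscle difference was 0.39 in T2DM mice and 0.12 in Control mice. It was 1.32 in T2DM mice and 1.74 in Control mice within the first set, where no library overlapped in either mouse group. The share of all genes higher without overlap in the first set was 49.2% in T2DM mice and 66.1% in Control mice.

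**Figure D2:**
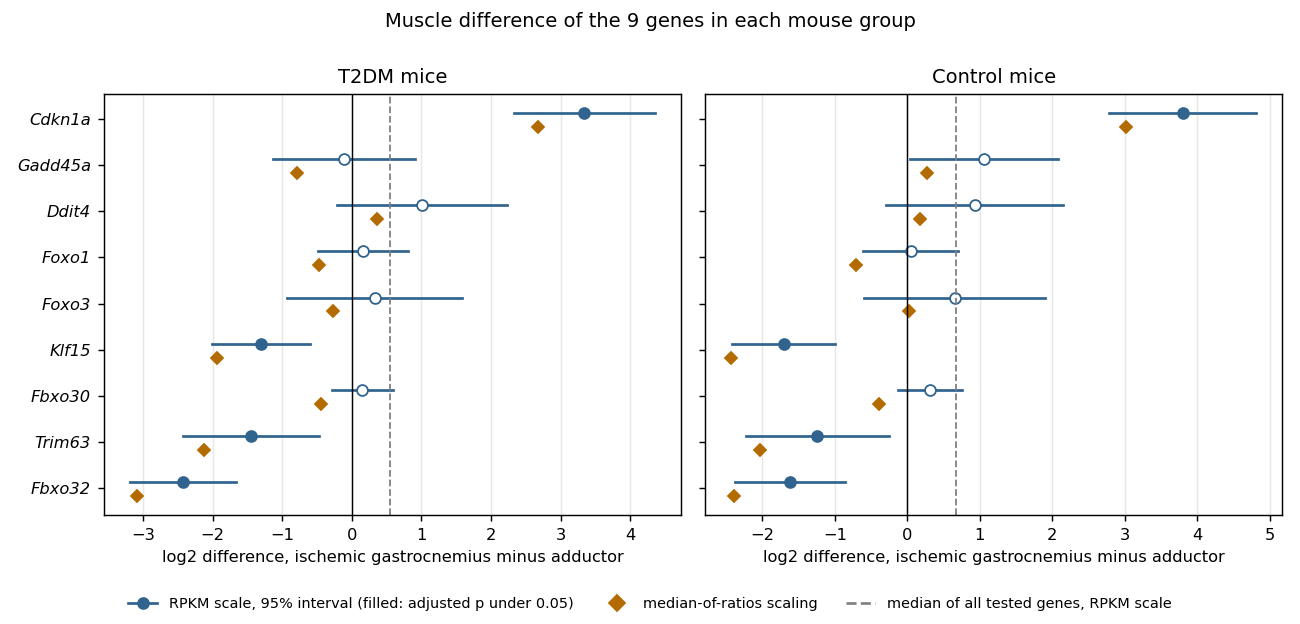
Log2 difference of each gene, ischemic gastrocnemius minus adductor, in T2DM mice (left) and Control mice (right); circles with 95% intervals are on the RPKM scale, diamonds under median-of-ratios scaling, and the dashed line is the median of all genes (0.55 and 0.66). Cdkn1a lies above and Fbxo32, Trim63 and Klf15 below the median in both; Fbxo30 and Foxo1 change sign with the scale in both mouse groups.

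Markers of other cells moved with these muscle differences. The 10 fibre genes summed to 22339 to 76840 RPKM in T2DM gastrocnemius and 17082 to 72506 in Control gastrocnemius, against 51806 to 115333 in T2DM adductor and 65597 to 130235 in Control adductor. Of the 10, 5 fell in T2DM mice (median log2 difference of the list -1.16) and 7 in Control mice (-1.68). The 5 regenerating fibre genes, among them embryonic and perinatal myosins, summed to 468 to 1146 RPKM in T2DM gastrocnemius and 558 to 1113 in Control gastrocnemius, against 9.84 to 47.1 in T2DM adductor and 8.45 to 117 in Control adductor, and all 5 rose in both mouse groups. Of 7 macrophage genes, 6 rose in both mouse groups, with sums of 274 to 1145 RPKM in T2DM gastrocnemius and 347 to 1372 in Control gastrocnemius, against 44.2 to 93.6 in T2DM adductor and 26.7 to 227 in Control adductor. All 6 fibroblast genes rose in both mouse groups as well. Under the median-of-ratios scaling 7 of the 10 fibre genes were lower in T2DM and 9 in Control mice, and all 5 regenerating fibre genes stayed higher in both. Of the macrophage genes, 5 were then higher and 1 lower in T2DM mice, and 6 higher and 1 lower in Control mice. Of the 6 fibroblast genes, 4 were higher in T2DM and 5 in Control mice. None of these markers was at 0 in any library, apart from 1 regenerating fibre gene in 1 Control adductor library. In whole muscle, fewer cells of a type and less RNA per cell cannot be told apart, and the part of these cells in the differences of the 9 genes was not tested.

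Other genes of the pathway were read from lists chosen with earlier results of these data known, and their counts on the RPKM scale are set beside the background shares above. On the median-of-ratios scale the background is 27.4% higher and 26.2% lower in T2DM mice, and 28.4% higher and 26.5% lower in Control mice. Of 16 further ubiquitin ligase and atrophy genes, 3 were higher and 5 lower in T2DM gastrocnemius, and 3 higher and 6 lower in Control gastrocnemius, with list medians of -0.08 and -0.14 against 0.55 and 0.66 over all genes. Among them Trim54 (MuRF3, a sarcomeric partner of MuRF1) fell by 1.44 ± 0.26 in T2DM and by 1.65 ± 0.26 in Control mice (log2; limma adjusted p = 5.99e-05 and 9.32e-06). Asb2, a ligase subunit of muscle, fell by 1.78 ± 0.27 in T2DM and by 1.62 ± 0.27 in Control mice (8.97e-06 and 2.15e-05). Zfand5, a ubiquitin-binding protein, fell by 1.10 ± 0.23 in T2DM and by 0.97 ± 0.23 in Control mice (0.000242 and 0.000722). Under the median-of-ratios scaling none of the 16 was higher and 9 were lower in each mouse group, where 26.2% (T2DM) and 26.5% (Control) of all genes were lower, with list medians of -0.74 and -0.88 against -0.036 and -0.017 over all genes.

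Of 15 autophagy genes known as FoxO targets or partners, 1 was higher and 4 lower in T2DM gastrocnemius, and 2 higher and 4 lower in Control gastrocnemius, with list medians of -0.05 and 0.14. Ctsl, a lysosomal protease, rose by 1.29 ± 0.30 in T2DM and by 1.84 ± 0.30 in Control mice (log2). Bnip3, a mitophagy receptor, fell by 0.98 ± 0.22 in T2DM and by 0.87 ± 0.22 in Control mice, and Ulk2, a kinase that starts autophagy, fell by 0.92 ± 0.25 and by 1.004 ± 0.25. The call of Ctsl in T2DM mice was lost under the median-of-ratios scaling (0.62, limma adjusted p = 0.0747). On that scale none of the 15 was higher and 10 were lower in T2DM gastrocnemius, and 1 was higher and 10 lower in Control gastrocnemius, beside 26.2% and 26.5% of all genes lower in T2DM and Control mice.

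Among 18 other FoxO genes and targets, 5 were higher and 3 lower in T2DM gastrocnemius, and 7 higher and 4 lower in Control gastrocnemius, with list medians of 0.05 and 0.09. Mstn, which encodes the growth inhibitor myostatin, fell by 2.44 ± 0.39 in T2DM and by 2.76 ± 0.39 in Control mice (log2; limma adjusted p = 1.49e-05 and 2.56e-06). Foxo4 fell by 1.26 ± 0.25 in T2DM and by 1.08 ± 0.25 in Control mice, and Angptl4, an inhibitor of lipoprotein lipase, rose by 2.33 ± 0.53 and by 2.69 ± 0.53. Under the median-of-ratios scaling 1 of the 18 was higher and 7 were lower in T2DM gastrocnemius, and 1 was higher and 10 lower in Control gastrocnemius; Mstn, Foxo4 and Angptl4 kept their calls. Of 16 genes of the glucocorticoid receptor and its targets, 2 were higher and 1 lower in each mouse group, with list medians of 0.05 in T2DM and -0.19 in Control mice. The metallothionein Mt2 rose by 3.21 ± 0.99 in T2DM and by 3.07 ± 0.99 in Control mice, and Zbtb16, a receptor target, fell by 1.23 ± 0.34 and by 1.495 ± 0.34. Under the median-of-ratios scaling 1 of the 16 was higher and 6 were lower in T2DM gastrocnemius, and none was higher and 8 were lower in Control gastrocnemius, where Mt2 lost its call (2.29, limma adjusted p = 0.0612).

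The lists closest to Cdkn1a in role were counted in the same way. Of 16 other p53 and DNA damage targets, 8 were higher and 1 lower in T2DM gastrocnemius, and 9 higher and 1 lower in Control gastrocnemius, with list medians of 0.68 and 0.85, near those of all genes. Bax, a pore protein of apoptosis, rose by 1.74 ± 0.29 in T2DM and by 2.26 ± 0.29 in Control mice (log2), whereas Ccng1, a cyclin induced by p53, fell by 1.51 ± 0.30 and by 1.62 ± 0.30. Under the median-of-ratios scaling 2 of the 16 were higher and 3 lower in T2DM gastrocnemius, and 5 higher and 3 lower in Control gastrocnemius. Of 11 measured genes of denervation and stress, 8 were higher in T2DM and 7 in Control gastrocnemius and none lower, with list medians of 2.79 and 3.65. Chrng, the subunit of the embryonic acetylcholine receptor, rose by 5.63 ± 0.43 in T2DM and by 5.29 ± 0.43 in Control mice, and Myog, the factor of myoblast differentiation, rose by 5.02 ± 0.46 and by 4.97 ± 0.46. On the median-of-ratios scale 6 of the 11 were higher and none lower in each mouse group. Of 10 genes of mTORC1 control, 1 was higher in each mouse group, Akt1, by 1.18 ± 0.31 in T2DM and by 1.86 ± 0.31 in Control mice. Of that list 2 were lower in T2DM and 1 in Control gastrocnemius; Ddit4l, a relative of Ddit4, fell by 1.04 ± 0.35 and by 1.23 ± 0.35. Under the median-of-ratios scaling none of the 10 was higher and 7 were lower in T2DM gastrocnemius, where Akt1 lost its call (0.51, limma adjusted p = 0.094), and 1 was higher and 5 lower in Control gastrocnemius.

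Between T2DM and Control mice, none of the 9 genes passed the test in either muscle, and none reached an unadjusted p under 0.05. Over all genes, 4 were called in adductor (0.0323%) and 1 in gastrocnemius (0.00808%) by limma, while 339 and 156 had an unadjusted p under 0.05; limma-voom on reads recovered from the RPKM values called none of the 9 either. In adductor the differences were positive for 8 of the 9 and ran from -0.13 for Foxo1 to 0.89 for Gadd45a (log2), beside a median of 0.035 over all genes. Fbxo32 averaged 81.7 ± 48.3 RPKM in T2DM and 49.1 ± 11.0 in Control adductor, a difference of 0.58 ± 0.37 (95% interval -0.18 to 1.34). Gadd45a averaged 52.1 ± 59.4 RPKM in T2DM and 22.7 ± 12.5 in Control adductor, a difference of 0.89 ± 0.49 (-0.13 to 1.90). T2DM adductor 1 added to the SD of its group and to the size of both differences. Without it the difference was 0.34 for Fbxo32 and 0.44 for Gadd45a. That library had the highest value of its group for 6 of the 9 genes, among them 169 RPKM of Fbxo32 and 172 RPKM of Gadd45a. It had the lowest value for 2 of the 9, and the share of all genes highest in it was not computed.

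In ischemic gastrocnemius the T2DM minus Control differences lay between -0.29 for Gadd45a and 0.40 for Klf15, with 95% intervals within -1.31 and 1.49. Klf15 averaged 6.31 ± 4.72 RPKM in T2DM and 4.06 ± 1.99 in Control gastrocnemius, and Cdkn1a 212 ± 87.8 and 217 ± 86.2 RPKM. The T2DM and Control libraries overlapped for all 9 genes in both muscles, as for nearly all genes: 0.218% did not overlap in adductor (0.194% higher and 0.0242% lower in T2DM) and 0.0646% in gastrocnemius. The difference between the diabetes effects of the muscles, gastrocnemius minus adductor, was called for none of the 9 and for 0 of 12382 genes (154 at an unadjusted p under 0.05). For Gadd45a it was -1.18 ± 0.70 (95% interval -2.62 to 0.26) and for Fbxo32 -0.81 ± 0.52 (-1.88 to 0.27).

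Within the library sets, the adductor difference T2DM minus Control had opposite signs for 7 of the 9 genes, all but Foxo3 and Ddit4. The share of all genes with opposite signs was not computed, so this count has no background and is not read as particular to these genes. In the second set, with 2 T2DM and 3 Control libraries, 6 of the 9 differences were negative, beside a median of 0.11 over all genes. In the first, with 4 and 3, 8 were positive, beside a median of -0.0082. Neither set gave a call among the 9, against 0.162% of all genes called in the second and 0.0162% in the first; 1 of the 9 had an unadjusted p under 0.05 in the second set and 3 in the first, beside 444 (3.59%) and 795 (6.42%) of all genes.

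Markers of other cells also had opposite signs between the sets in this comparison, with none of their genes called in either set. The median T2DM minus Control difference of the 6 fibroblast genes was 0.41 in the second set (6 positive) and -0.78 in the first (0 positive). It was 0.74 and -0.42 for the 7 macrophage genes, 0.34 and -1.03 for the 5 regenerating fibre genes, and 0.54 and -0.30 for the 5 endothelial genes (second set, then first). The 10 fibre genes had a negative median in both, -0.30 and -0.23. Summed fibroblast levels were 315 and 298 RPKM in T2DM and 196 to 291 in Control adductors of the second set. In the first set they were 250 to 506 RPKM in T2DM and 272, 499 and 1049 in Control adductors. Summed macrophage levels were 71.9 and 68.3 RPKM in T2DM and 26.7 to 36.9 in Control adductors of the second set, and 44.2 to 93.6 RPKM in T2DM and 49.4 to 227 in Control adductors of the first. Control adductor 2 stood apart, with the highest adductor sum of fibroblast (1049 RPKM), macrophage (227 RPKM) and regenerating fibre genes (117 RPKM). Without it the first-set differences were 1.21 for Trim63, 2.08 for Gadd45a, 0.68 for Foxo1, 0.97 for Fbxo32, 0.46 for Fbxo30 and 1.64 for Cdkn1a. The part of these cells in the within-set differences was not tested.

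Trim63 was 75.7 and 123 RPKM in the second-set T2DM adductors and 223, 272 and 141 in the Control adductors. In the first set it was 331, 145, 68.6 and 123 RPKM in T2DM and 51.3, 62.3 and 72.1 in Control adductors. The T2DM libraries were all lower in the second set and mostly higher in the first, where 68.6 lay below the highest Control value. T2DM minus Control was -1.08 ± 0.52 (log2; limma adjusted p = 1) in the second set. The first set gave 1.20 ± 0.44 (limma adjusted p = 0.496). The second minus the first was -2.29 ± 0.68 (unadjusted p = 0.00308, adjusted p = 0.706).

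Gadd45a was 21.9 and 26.6 RPKM in the second-set T2DM adductors and 30.6, 40.2 and 29.4 in the Control adductors, with no overlap. In the first set it was 172, 27.4, 19.3 and 45.4 RPKM in T2DM and 7.52, 14.6 and 14.0 in Control adductors, again with no overlap but in the opposite direction. T2DM minus Control was -0.45 ± 0.56 (log2; limma adjusted p = 1) in the second set. The first set gave 1.92 ± 0.47 (limma adjusted p = 0.169). Their difference, second minus first, was -2.37 ± 0.73 (unadjusted p = 0.00413, adjusted p = 0.752). Without T2DM adductor 3 the first-set difference was 2.32, with a limma adjusted p of 0.0132, and without T2DM adductor 1 it was 1.28 (limma adjusted p = 0.321).

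Foxo1 was 6.83 and 5.58 RPKM in the second-set T2DM adductors and 15.2, 22.3 and 5.40 in the Control adductors, so the Control values spanned the T2DM values. In the first set it was 9.06, 6.94, 5.76 and 6.95 RPKM in T2DM and 4.57, 4.77 and 3.91 in Control adductors, with no overlap. T2DM minus Control was -0.94 ± 0.39 (log2) in the second set. The first set gave 0.63 ± 0.32, and the second minus the first was -1.57 ± 0.51 (unadjusted p = 0.00537, limma adjusted p = 0.783). Without Control adductor 6 the second-set difference was -1.502, with a limma adjusted p of 0.0494.

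Of the remaining genes, T2DM minus Control for Fbxo30 was -0.41 ± 0.30 in the second set and 0.51 ± 0.25 in the first (second minus first -0.92 ± 0.39, unadjusted p = 0.0285, limma adjusted p = 0.956). For Cdkn1a it was -0.50 ± 0.75 (second) and 1.08 ± 0.62 (first), with T2DM values of 13.0 and 12.0 RPKM below all Control values of the second set. For Fbxo32 it was -0.21 ± 0.57 (second) and 1.06 ± 0.48 (first). Foxo3 (0.47 second, 0.13 first) and Ddit4 (0.21 second, 0.77 first) had 1 sign in both sets, and Klf15 had 0.34 (second) and -0.10 (first). Separation of the groups alone is common in sets this small: of all genes, 28.6% did not overlap in the second set (6.78% lower in T2DM) and 8.97% in the first (5.28% higher in T2DM). Among the 9 genes, 3 did not overlap in the second set, all lower, and 2 in the first, both higher. The difference between the sets was called for none of the 9 and for 0.0162% of all genes.

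In ischemic gastrocnemius the signs were opposite for 4 of the 9 genes (Foxo1, Foxo3, Gadd45a and Cdkn1a), with smaller sizes. The share of all genes with opposite signs was not computed here either. The T2DM minus Control differences of the 9 genes lay between -0.44 and 0.67 in the second set and between -0.27 and 0.35 in the first, none called, against 0.242% (0.105% lower) and 0% of all genes. The second minus the first ran from -0.62 to 0.43, with the lowest unadjusted p at 0.41, against 0.0646% of all genes called, 0.0485% higher.

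**Figure D3:**
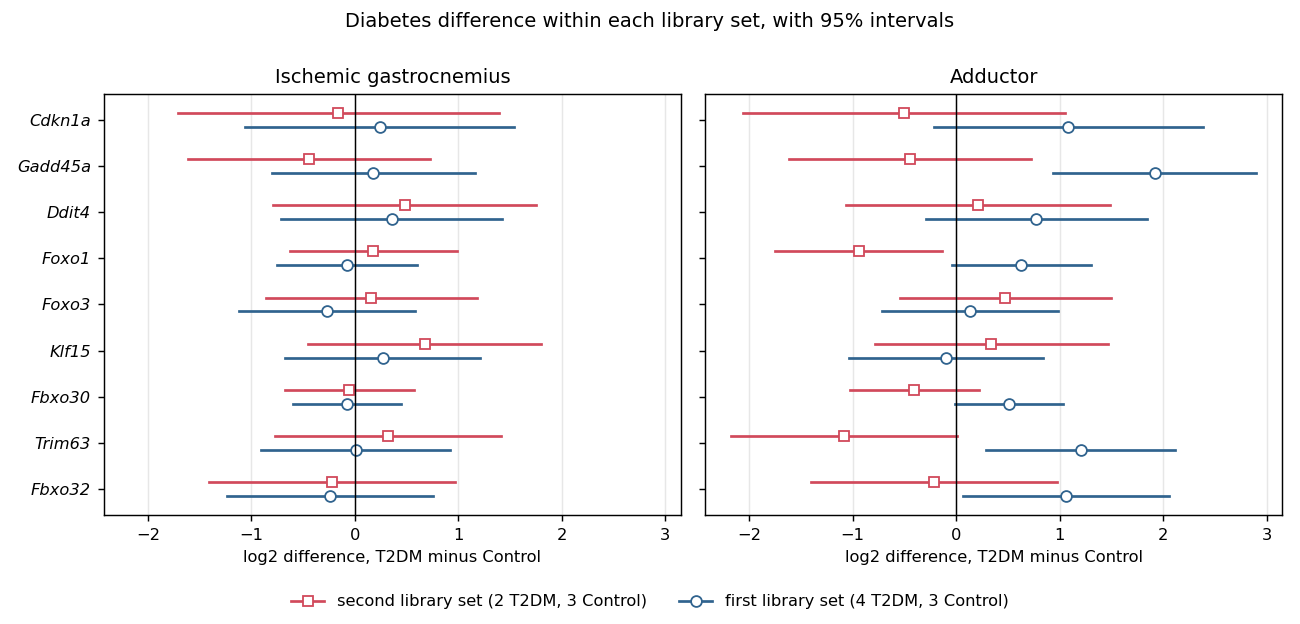
Log2 difference T2DM minus Control in ischemic gastrocnemius (left) and adductor (right) within the second library set (squares) and the first (circles), with 95% intervals. In adductor Gadd45a, Trim63 and Foxo1 lie on opposite sides of 0 in the 2 sets (for Gadd45a -0.45 in the second and 1.92 in the first), and in gastrocnemius all points lie between -0.44 and 0.67.

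The sets also differed in level, averaged over the 4 groups. This comparison was added after the data were seen, and 56.6% of all genes were called in it, 23.7% higher and 32.9% lower in the second set. Of the 9 genes, 4 were higher and 1 lower in the second set, and the same 5 were called under the median-of-ratios scaling. Foxo3 fell by 1.85 ± 0.23 (log2, second minus first; limma adjusted p = 7.32e-07): it ran from 0.483 to 2.18 RPKM in the 10 second-set libraries and from 1.62 to 10.5 in the 14 first-set libraries, where T2DM gastrocnemius 1 was the lowest and the only 1 within the second-set range. Ddit4 rose by 1.49 ± 0.28 (adjusted p = 0.000144), Trim63 by 0.89 ± 0.24 (0.00365), Gadd45a by 0.78 ± 0.26 (0.0147) and Foxo1 by 0.43 ± 0.18 (0.0471). The call of Foxo1 was lost in 18 of the 24 fits that left out 1 library, with differences of 0.28 to 0.58 over all of them, and without T2DM 2 and Control 3 of gastrocnemius (0.38, adjusted p = 0.082). Klf15, at 0.34 ± 0.25 over all libraries, was called without those libraries (0.53, adjusted p = 0.0358) and without T2DM gastrocnemius 5 alone (0.62, limma adjusted p = 0.0265), whereas without T2DM gastrocnemius 6 it was 0.056.

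Of 16 genes of the glucocorticoid receptor and its targets, 8 were higher, 2 lower and 6 not called in the second set, with a list median of 0.57 against -0.11 over all genes. Cebpb, Cebpd and Tsc22d3 (GILZ), transcription regulators induced by the receptor, rose by 1.12 ± 0.12, 1.41 ± 0.18 and 1.35 ± 0.17 (log2, second minus first), and the metallothionein Mt1 by 2.91 ± 0.34. Of 10 genes of mTORC1 control, 2 were higher and 7 lower, among them Akt2, down by 1.62, and Mtor, at -1.04. Of 15 autophagy genes 5 were higher and 6 lower, and of 16 ligase genes 4 were higher and 4 lower. Fibre markers were also higher in the second set for 7 of 10 genes and macrophage markers lower for 5 of 7, and their part in these differences was not tested. The receptor list had 10 higher and 2 lower, and the mTORC1 list 2 higher and 7 lower, under the median-of-ratios scaling, where 31% of all genes were higher and 29.6% lower.

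Across libraries of the same group and set, some pairs of the genes varied together. Deviations from the mean of each group and set, over 24 libraries, gave a Pearson r of 0.87 for Fbxo32 with Trim63, 0.69 for Fbxo32 with Klf15, 0.66 for Foxo1 with Fbxo30 and 0.65 for Cdkn1a with Gadd45a; the lowest was -0.51 for Cdkn1a with Klf15. These are descriptions, since libraries share depth, set and cell makeup and a cell of 2 libraries gives mirrored deviations. Fbxo32 with Trim63 gave 0.96 over the 12 gastrocnemius and 0.83 over the 12 adductor libraries. Cdkn1a with Fbxo32 gave -0.72 in gastrocnemius and 0.49 in adductor. The r of Fbxo32 with Klf15 was 0.87 in gastrocnemius and -0.11 in adductor, so the value over 24 libraries holds for gastrocnemius only. Cdkn1a with Klf15 gave -0.68 in gastrocnemius and -0.23 in adductor. In gastrocnemius T2DM 2 and Control 3 had low Cdkn1a (55.9 and 54.0 RPKM) and high Fbxo32 (22.7 and 34.2 RPKM) for the first set.

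**Figure D4:**
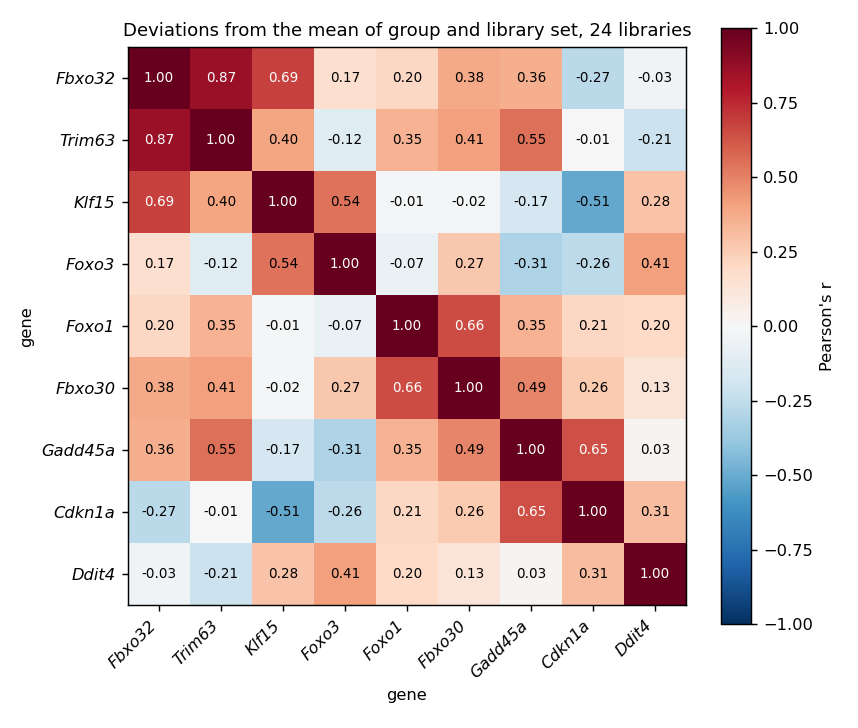
Pearson's r between the 9 genes over the deviations of 24 libraries from the mean of their group and library set. Fbxo32 with Trim63 has the highest r (0.87) and Klf15 with Cdkn1a the lowest (-0.51).

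By the same measure over all genes tested, the 3 most like Fbxo32 were Park2 (r = 0.91), Klhl38 (0.88) and Cwf19l2 (0.88), and those most like Trim63 were Phlda3 (0.87), Fbxo32 (0.87) and Mapre3 (0.81). Klf15 went with E2f6 (0.92), Ndufs1 (0.92) and Idh3b (0.92), and Foxo3 with Nin (0.95), Nrip1 (0.94) and Vps13c (0.93). Ddit4 went with Cebpd (0.92), Klf13 (0.89) and H2-Q4 (0.88), Gadd45a with Rgs2 (0.88), Fam192a (0.87) and Nsfl1c (0.87), and Cdkn1a with Mfsd5, Arl6ip5 and Ppp4c (0.94 each). Foxo1 was most like Wdr70 (0.88), Rgs4 (0.83) and Glcci1 (0.83), and Fbxo30 most like Gclm, Ranbp9 and Ets2 (0.85 each). Trim63 has Fbxo32 among its 3, and no other gene of the 9 has a member of the group among its 3.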

How the data were processed

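The authors deposited 1 table of RPKM values per RefSeq transcript for 24 libraries, computed with HOMER over exons of mm9, per the file headers. The submitters' processing notes list TopHat as a tool as well. No header or label gives versions, a strand option or the handling of reads with several matches, so overlapping and antisense genes cannot be told apart. RPKM times transcript length and library total gave whole reads within 0.01 for 99.97% of values above 0. Totals were 7.13 to 15.6 M reads; 3 reads, the limit that a count of 0 allows, came to at most 0.344 RPKM for these genes, for counting error only.

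Where a symbol had several transcripts, that of highest mean RPKM stood for it, and testing was limited to genes that reached 1 RPKM in 6 or more libraries. Values of log2(RPKM + 0.5) were fitted with an intensity trend in limma 3.58.1 under R 4.3.3, once with 4 group means and once with 8 means of group by library set, with Benjamini-Hochberg adjustment within each contrast at 0.05; fold changes on this scale understate those of low genes. Intervals are 95% from the fit. The scripts were tested on simulated data. Alternatives were other pseudocounts (0.1 and 1), no filter, median-of-ratios scaling, limma-voom on recovered reads, a library set term, replicate number as a block, the longest transcript, each set fitted alone and leaving out each library. The members, the lists and the alternatives were chosen with earlier results of these data known. Named are the 9 members, up to 4 genes of each list by smallest p, and the 3 genes most like each member.

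Same-numbered libraries of the muscles deviated together, with r between 0.25 and 0.74 across genes in 12 pairs. Once set means were removed, r was -0.09 to 0.63. Their numbers were treated as pairing in the blocked fit of the muscle contrasts (consensus correlation 0.41). The number also fixes the library set, and that fit had no set term. Its correlation thus includes the difference between the sets and does not show that a pair came from 1 animal.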

Additional observations from a re-analysis of the deposited data

Results flagged for a closer look

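In a group of 6 libraries, 1 value was marked where its gap to the nearest other, as a share of the group's range, passed Dixon's 95% critical value. Of 36 groups (9 genes in 4 groups), 7 were marked. Chance marks about 1 in 20 for independent normal values from 1 population. Here the values were RPKM without the log2 step, each group held libraries of both sets, and the genes shared libraries. That rate is therefore no background for the count, and marks on the log2 scale were not computed. T2DM adductor 1 was marked for Trim63 (331 RPKM, next 145) and for Gadd45a (172 RPKM, next 45.4). T2DM ischemic gastrocnemius 6 was marked for Trim63 (125 RPKM, next 57.5), Foxo1 (14.1 RPKM, next 7.90) and Ddit4 (88.7 RPKM, next 19.7). It was the highest of its group for 6 of the 9 genes and for 10 of 16 genes of the glucocorticoid receptor list. In the other lists it was highest for 1 of 15 autophagy, 2 of 16 ligase and 5 of 18 FoxO genes. For p53, denervation and mTORC1 genes the counts were 5 of 16, 2 of 11 and 1 of 10. The share over all genes was not computed. Klf15 in Control adductor 6 was marked at 21.2 RPKM (next 14.3), and Cdkn1a in Control ischemic gastrocnemius 3 at 54.0 RPKM, far under the next value of 225.

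Gadd45a in adductor was marked because T2DM and Control libraries were parted in opposite directions in the 2 library sets. The difference of the effects, second minus first, was -2.37 (log2) with a limma adjusted p of 0.752, so it does not pass the test over all genes.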

How the results depend on the processing

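Of the results other than single-library omissions, 429 values of single genes kept their direction and their side of the threshold, 17 turned round, 6 gained and 1 lost a call, and the count of members called stayed within 1.5 times in all 70 comparisons. Under median-of-ratios scaling the muscle difference was -0.45 for Fbxo30, -0.47 for Foxo1 and -0.27 for Foxo3 in T2DM mice and -0.39 for Fbxo30 and -0.70 for Foxo1 in Control mice, all of opposite sign to the RPKM scale. T2DM minus Control then turned to -0.049 for Klf15 in adductor and to 0.0050 for Trim63, 0.041 for Fbxo30, 0.052 for Foxo1 and 0.031 for Cdkn1a in gastrocnemius. A library set term gave 0.14 for Trim63, 0.029 for Foxo1, -0.094 for Foxo3 and 0.074 for Cdkn1a there, and 0.036 for Gadd45a between the muscles of T2DM mice. Without gastrocnemius Control 3 and T2DM 2, chosen after seeing the data, Gadd45a was 0.083 between the muscles of T2DM mice and Fbxo32 0.015 between the sets. The cause was not tested. None of these values was called.

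Genes called between T2DM and Control numbered 1 in adductor without those libraries, and in gastrocnemius 2 with a pseudocount of 1, 4 with no filter and 0 with a set term. Within the first set of adductor 1 was called with the set fitted alone, 15 with median-of-ratios scaling and 12 without those libraries. Without them 84 were called in the second set of gastrocnemius, and 9 in adductor and 13 in gastrocnemius between the sets, where the ratio scaling gave 4 in adductor.

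With 1 library left out at a time, genes called ranged over 1 to 4 in adductor and 0 to 3 in gastrocnemius for T2DM minus Control, 4 to 23 and 1 to 124 in the second and first adductor set, 11 to 150 in the second gastrocnemius set, and 0 to 7 and 0 to 33 for the set difference in adductor and gastrocnemius. Members called ranged over 0 to 1 within each adductor set, 3 to 5 between the Control muscles and 4 to 6 between the sets. Values that changed sign in adductor ranged from -0.13 to 0.41 for Trim63, -0.29 to 0.18 for Foxo1, -0.14 to 0.13 for Klf15 and -0.14 to 0.60 for Ddit4. In gastrocnemius they were -0.40 to 0.00068 for Fbxo32, -0.35 to 0.14 for Trim63, -0.13 to 0.070 for Fbxo30, -0.18 to 0.058 for Foxo1, -0.035 to 0.57 for Foxo3, -0.16 to 0.44 for Ddit4 and -0.40 to 0.31 for Cdkn1a. Within the second adductor set Ddit4 ran from -0.22 to 0.65, and in the first Foxo3 from -0.035 to 0.34 and Klf15 from -0.21 to 0.0082. Between the muscles Foxo1 ran from -0.014 to 0.24 in T2DM and -0.13 to 0.35 in Control mice, and Gadd45a from -0.30 to 0.32 in T2DM mice. Fbxo32 between the sets ran from -0.40 to 0.032.

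With the replicate block the muscle contrasts called 8229 genes in T2DM and 8884 in Control mice, and among the 9 genes only Ddit4 in T2DM and Gadd45a in Control mice changed their call. The same numbers did not pair the mouse groups (r from -0.66 to 0.82 across genes), and with them as a block 5 genes were called in adductor and 1 in gastrocnemius, with none of the 9 among them. Depth limits Foxo3 most, at 15 reads in its lowest library.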
